A study of Homo sapiens with 24 samples.

Results

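The let-7 microRNAs, their host genes, the LIN28B and uridylyltransferase genes that act on their precursors, and a set of well-known let-7 target genes are described here in SBC-3, a human cell line labelled as small cell lung cancer. The members were chosen by symbol: the 3 host genes MIRLET7IHG, MIRLET7BHG and MIRLET7A1HG, the 3 regulators LIN28B, TUT4 and TUT7, and the 4 targets HMGA2, IGF2BP1, IGF2BP2 and IGF2BP3. These 10 genes are part of 60605 listed in each library, and all 10 had reads in all 24 libraries and passed the filter on low counts. The study asks how SFPQ, an RNA-binding protein of nuclear bodies called paraspeckles, acts on how primary microRNA transcripts are made and how long they last.

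The 24 libraries form 8 groups of 3, made from poly(A)-selected RNA of cells taken 72 h after reverse transfection at 10 nM. Small interfering RNAs (siRNAs) siSFPQ-2 and siSFPQ-3 were directed at SFPQ and siNONO-3 and siNONO-4 at its partner NONO, against the control siRNA siCtrl. The antisense oligonucleotides (ASOs) ASO-NEAT1-1047 and ASO-NEAT1-1473 were directed at NEAT1, the noncoding scaffold RNA of paraspeckles, against ASO-Ctrl. All libraries come from 1 line of labelled genotype WT, and as no label calls the replicates separate cultures, the p-values reflect a spread that may be technical.

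A let-7 microRNA is cut from a long primary transcript, the host RNA, into a hairpin and then into the mature strand, which pairs through its seed with sites in messenger RNAs and lowers their stability and translation. LIN28 proteins bind the loop of let-7 hairpins at a GGAG motif and block their maturation. LIN28A recruits the terminal uridylyltransferases TUT4 and TUT7, which add a tail of uridines that marks the hairpin for decay. Without LIN28 the same enzymes can add a single uridine that helps processing. LIN28B is itself a let-7 target, and it is high in embryonic tissue and in many tumours together with HMGA2 and the IGF2BP family.

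The mature strands made from the 3 host genes are shown to make plain that all share 1 seed, positions 2 to 8 from the 5′ end, in capitals. The sequences are those of RefSeq (GRCh38.p14).
hsa-let-7i-5p, from MIRLET7IHG: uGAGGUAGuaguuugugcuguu
hsa-let-7b-5p, from MIRLET7BHG: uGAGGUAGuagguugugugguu
hsa-let-7a-5p, from MIRLET7BHG and MIRLET7A1HG: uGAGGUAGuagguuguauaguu
hsa-let-7f-5p, from MIRLET7A1HG: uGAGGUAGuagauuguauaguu
hsa-let-7d-5p, from MIRLET7A1HG: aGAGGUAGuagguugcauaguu
Counted from the 5′ end with the let-7a base first, let-7i differs from let-7a by G12U, A17G, U18C and A19U, let-7b by A17G and A19G, let-7f by G12A and let-7d by U1A and U16C. All 9 mature strands of the let-7 and miR-98 family in the table carry the seed GAGGUAG.

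One hairpin of each host is shown for the LIN28 motif GGAG, searched on the hairpin strand between the mature arms and printed in capitals.
MIRLET7I: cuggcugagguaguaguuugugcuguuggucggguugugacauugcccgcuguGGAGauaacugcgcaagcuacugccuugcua
MIRLET7B: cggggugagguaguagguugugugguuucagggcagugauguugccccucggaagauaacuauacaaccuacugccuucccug
MIRLET7A1: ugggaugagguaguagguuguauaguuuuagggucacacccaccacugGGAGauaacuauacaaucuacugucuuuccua
The motif was in the loop of MIRLET7I and MIRLET7A1, and also of MIRLET7F1 and MIRLET7D, the other hairpins of MIRLET7A1HG. It was in neither hairpin of MIRLET7BHG, MIRLET7B and MIRLET7A3. Of the let-7 and miR-98 hairpins with both arms in the table, 8 of 11 held it (72.7%), against 60 of 739 such human hairpins in all (8.1%). A match is a description of the letters and not of binding.

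The hosts differ in where the hairpins lie. MIRLET7IHG (ENSG00000257354, chr12:62602752-62622213, plus strand, hg38) has an exon of 84 bases and one of 8609 bases, and MIRLET7I (chr12:62603686-62603769) lies in the intron between them, 934 bases from the start of the gene. MIRLET7BHG (ENSG00000197182, chr22:46053869-46113928, plus strand) holds MIRLET7A3 and MIRLET7B within its last exon of 4258 bases, and MIRLET7A1HG (ENSG00000269929, chr9:94166258-94200902, plus strand) holds MIRLET7A1, MIRLET7F1 and MIRLET7D within an exon of 3699 bases. The hairpin genes themselves are nearly empty in these counts, with 9 reads over 24 libraries for MIRLET7I and 0 for the 5 exonic hairpins. Those 5 lie wholly within host exons on the same strand. Their 0 may depend on how shared reads were counted, so it cannot show whether hairpin RNA was there. The counts are read here for host RNA and not for hairpins or mature let-7, which carry no poly(A) tail.

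**Figure D1:**
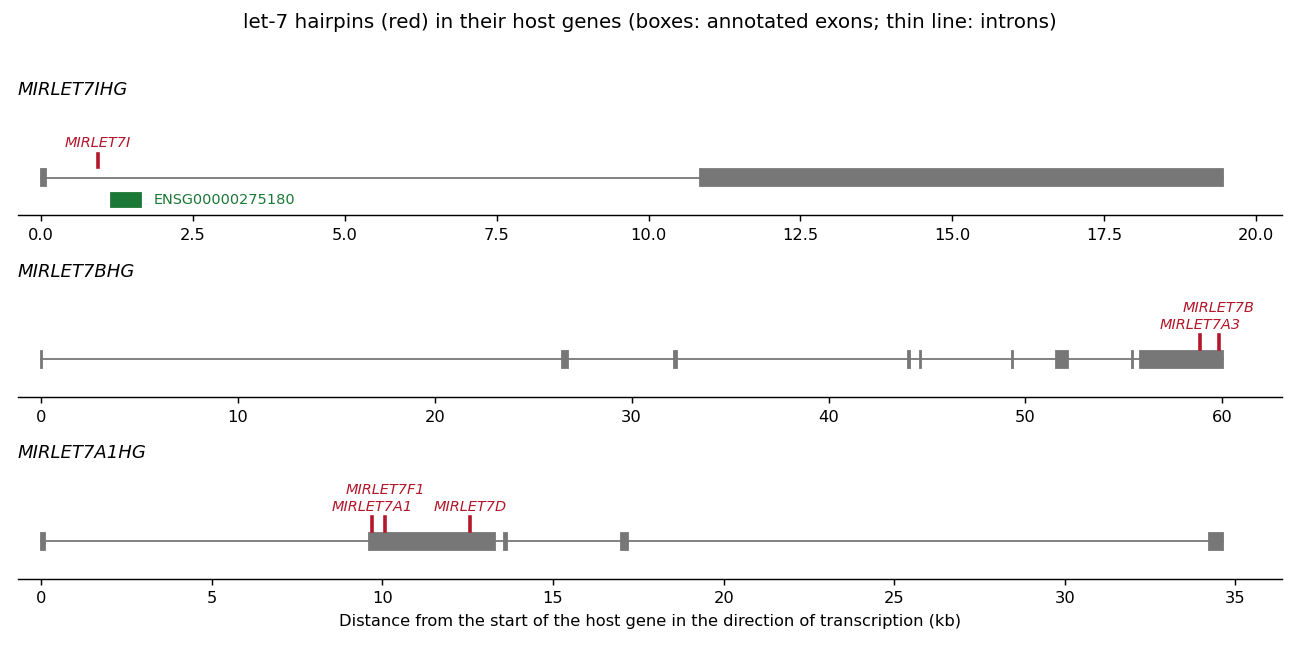
Exons (boxes), introns (thin lines) and let-7 hairpins (red) of the 3 host genes, against the distance from the start of the gene in kb. MIRLET7I lies in the intron of MIRLET7IHG, 934 bases from the start and 140 bases before ENSG00000275180 (green), and the other 5 hairpins lie within exons.

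The targeted genes were read first. SFPQ stood at 208 ± 47.3 CPM (reads relative to the TMM-adjusted size of each library) with siSFPQ-2 and 222 ± 27.3 with siSFPQ-3, against 1223 ± 40.2 in siCtrl (SD, n = 3 each). NONO stood at 69.2 ± 9.3 CPM with siNONO-3 and 70.1 ± 5.06 with siNONO-4, against 399 ± 14.9 in siCtrl. SFPQ RNA was itself called higher after NONO knockdown, and its part in the NONO results was not tested. That call was lost without siCtrl replicate 2 or 3 (log2 0.33 and 0.32, edgeR adjusted p = 0.0556 and 0.0512). NEAT1 stood at 297 ± 47.0 and 206 ± 25.4 CPM in the ASO groups, against 297 ± 85.8 in ASO-Ctrl, a log2 fold change of -0.26 (SE 0.20, edgeR adjusted p = 1), so these are called the libraries labelled ASO-NEAT1. Total counts ran from 4243196 to 9747514 in the 6 siSFPQ libraries, 9239632 to 10660126 in the 6 siNONO libraries and 9999025 to 13525528 in siCtrl. Mitochondrially encoded genes took 9.59 to 11.6% of counts in the siSFPQ libraries, against 7.63 to 9.07% in siCtrl; the part of this in the results was not tested. Of the markers of small cell lung cancer, INSM1 had no read in any library, CHGA, NCAM1 and UCHL1 were under 0.4 CPM in every group, and YAP1, a gene of the non-neuroendocrine subtype, averaged 334 and 333 CPM with siSFPQ-2 and siSFPQ-3, against 407 in siCtrl. The neuroendocrine marker SYP averaged 65.9 and 37.4 CPM with siSFPQ-2 and siSFPQ-3, against 17.2 in siCtrl. ENO2 averaged 30.8 CPM with siSFPQ-2 and 39.2 with siSFPQ-3, against 26.7 in siCtrl, and NEUROD1 2.40 with siSFPQ-2 and 1.36 with siSFPQ-3, against 4.62 in siCtrl. The squamous marker TP63 averaged 10.0 and 3.02 CPM with siSFPQ-2 and siSFPQ-3 and 50.2 and 54.7 with siNONO-3 and siNONO-4, against 70.5 in siCtrl. The sum over the 10 markers of other cells was 25.4 to 38.2 CPM with siSFPQ-2, 17.4 to 23.3 with siSFPQ-3, 66.9 to 72.2 with siNONO-3 and 79.6 to 101.6 with siNONO-4, against 82.1 to 89.4 in siCtrl, with DCN at 0 in every library. TP63 made up most of this sum in siCtrl and in the siNONO groups, so the sum largely follows TP63. Apart from TP63, no marker of that list had a lower mean with both SFPQ siRNAs than in siCtrl. The part of these markers in the results was not tested. In bulk RNA, fewer cells of a kind and less RNA per cell cannot be told apart.

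With SFPQ knocked down, 3 of the 10 members were higher and 6 lower than in siCtrl at an edgeR quasi-likelihood adjusted p under 0.05. Of all 15869 genes tested, 70.4% were called, 34.7% higher and 35.8% lower, so a call by itself is common here. The size and direction of the single genes are given below. The median log2 fold change of the members was -0.39, against -0.02 over all genes tested. With NONO knocked down, none of the 10 was higher and 2 were lower, with 17.4% of all genes called, 7.47% higher and 9.96% lower. This fit leaves out the replicate number, which pairs the libraries of this comparison. With that number as a block, 28.8% of all genes were called, 13% higher and 15.8% lower, and no call of a member changed.

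**Figure D2:**
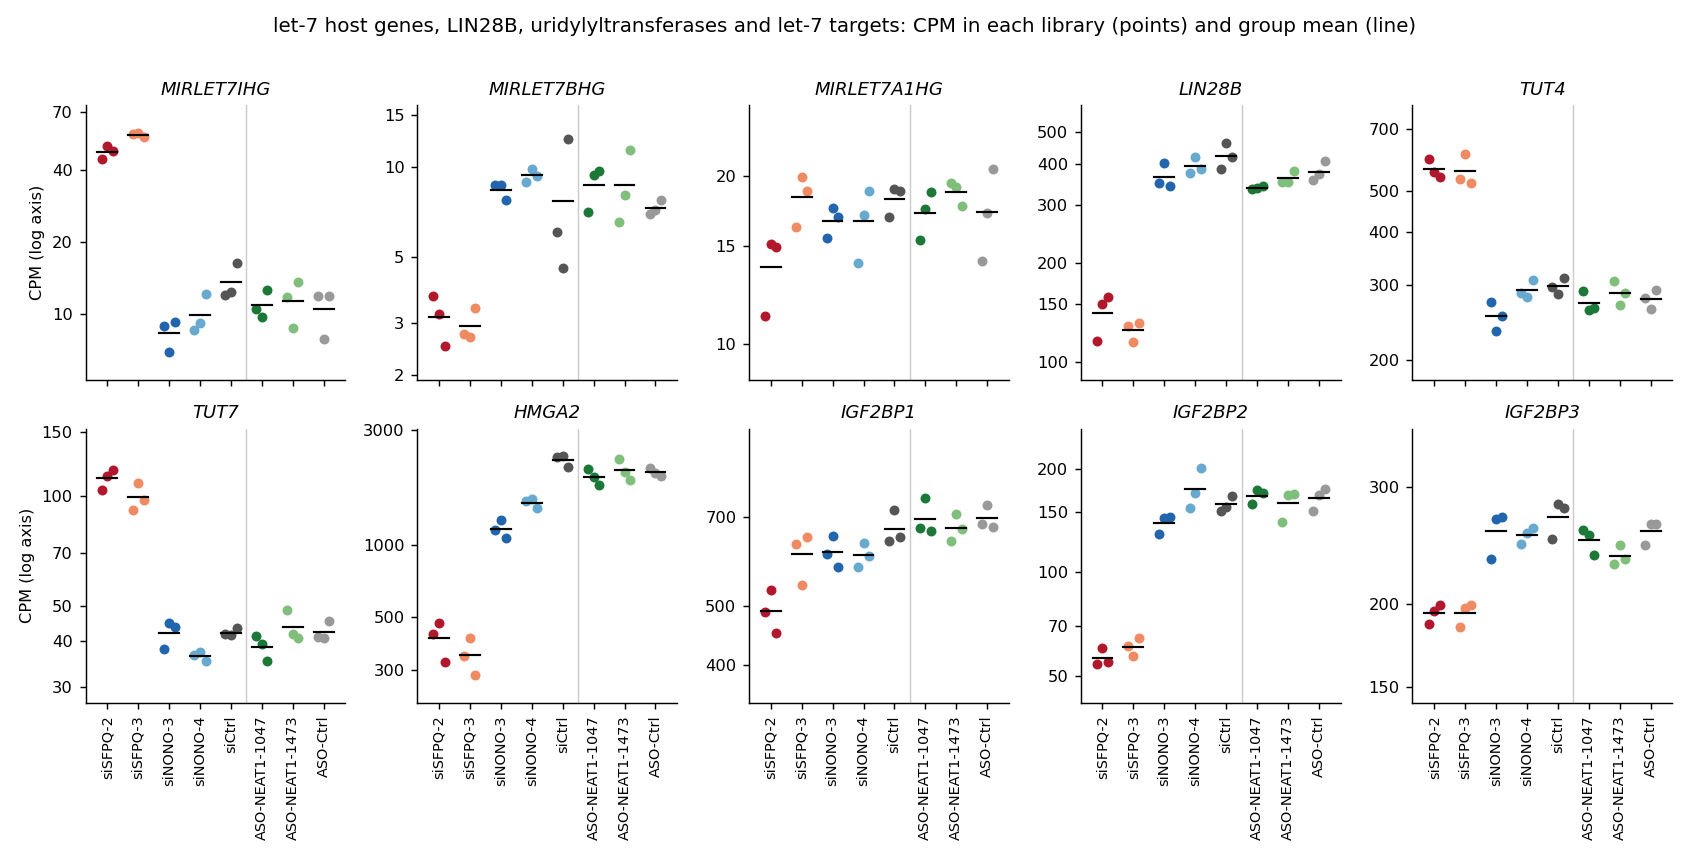
CPM (log axis) of the 10 genes in each of the 24 libraries, with points for libraries and lines for group means. MIRLET7IHG, TUT4 and TUT7 sit higher and MIRLET7BHG, LIN28B, HMGA2, IGF2BP2 and IGF2BP3 lower in all 6 siSFPQ libraries than in any of the 3 siCtrl libraries.

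**Figure D3:**
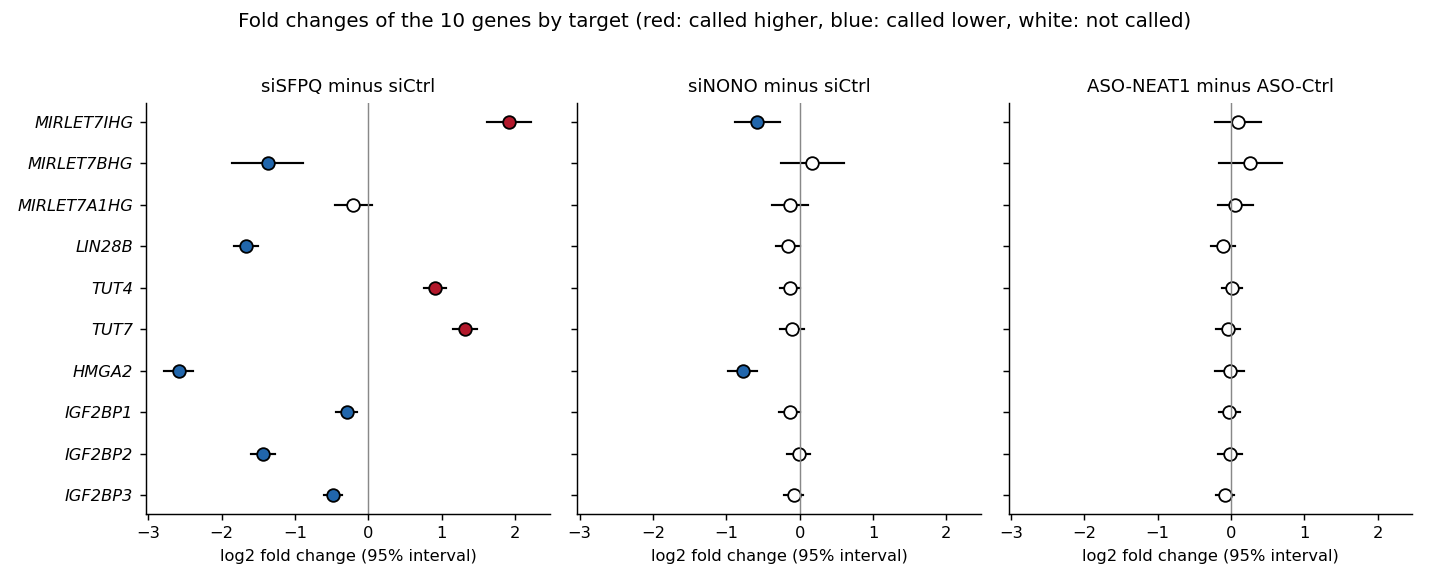
Log2 fold changes of the 10 genes with 95% intervals for siSFPQ and siNONO over siCtrl and for ASO-NEAT1 over ASO-Ctrl; red marks genes called higher, blue genes called lower and white genes not called. SFPQ knockdown gives values between -2.59 and 1.92, NONO knockdown between -0.78 and 0.17, and the ASO comparison between -0.11 and 0.26 with no gene called.

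Of the 3 host genes, 1 was higher, 1 lower and 1 not called after SFPQ knockdown. MIRLET7IHG, the host of let-7i, had 44.2, 50.1 and 48.1 CPM with siSFPQ-2 and 56.2, 57.1 and 54.6 CPM with siSFPQ-3, against 12.0, 12.3 and 16.3 CPM in siCtrl. The 6 knockdown libraries lie in a narrow band well above all 3 controls. It rose 3.78-fold, with a log2 fold change of 1.92 (SE 0.15, edgeR adjusted p = 5.94e-12). Leaving out any 1 library gave 1.82 to 2.07.

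MIRLET7BHG, the host of let-7b and 1 copy of let-7a, had 3.71, 3.22 and 2.52 CPM with siSFPQ-2 and 2.74, 2.7 and 3.37 CPM with siSFPQ-3, against 6.08, 4.60 and 12.4 CPM in siCtrl. All knockdown libraries are below all controls, and siCtrl replicate 3 stands apart from the other controls. The gene fell 2.59-fold, with a log2 fold change of -1.37 (SE 0.24, edgeR adjusted p = 1.1e-05); without siCtrl replicate 3 it was -0.84 (edgeR adjusted p = 0.00123). It has the fewest reads of the members, 1866 over all 24 libraries.

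MIRLET7A1HG, the host of let-7a, let-7f and let-7d, had 11.3, 15.1 and 14.9 CPM with siSFPQ-2 and 16.2, 19.9 and 18.8 CPM with siSFPQ-3, against 16.9, 18.9 and 18.8 CPM in siCtrl. The siSFPQ-2 libraries are all below the controls, while those of siSFPQ-3 overlap them. The mean of both siRNAs gave a log2 fold change of -0.20 (95% interval -0.45 to 0.05, edgeR adjusted p = 0.14), which was not called. With siSFPQ-2 alone, where 64.9% of all genes were called, MIRLET7A1HG fell by 0.41 (SE 0.15, edgeR adjusted p = 0.0162), a call lost without siSFPQ-2 replicate 1 (-0.29, adjusted p = 0.12), and siSFPQ-3 alone, with 67% called, gave 0.01 (adjusted p = 0.966). The difference between the siRNAs was -0.42 (adjusted p = 0.0591), and -0.50 (adjusted p = 0.0498) without siSFPQ-3 replicate 1.

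After NONO knockdown MIRLET7IHG went the other way. It had 8.88, 6.90 and 9.23 CPM with siNONO-3 and 8.55, 9.12 and 12.1 CPM with siNONO-4, against 12.0, 12.3 and 16.3 CPM in siCtrl. The ranges touch, since the highest siNONO-4 library lies just above the lowest control. It fell by 0.58 on the log2 scale (SE 0.15, edgeR adjusted p = 0.00803), and by 0.58 with an adjusted p of 0.000162 where the replicate number, which pairs libraries in this comparison, was a block in the model. Without siCtrl replicate 3 the log2 fold change was -0.43 (adjusted p = 0.0892) and the call was lost. In the ASO arm the controls themselves stood at 11.8, 7.87 and 11.9 CPM. The SFPQ effect on MIRLET7IHG exceeded the NONO effect by 2.50 (SE 0.12, edgeR adjusted p = 1.63e-16), a comparison of the knockdown groups in which 75.4% of all genes were called.

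The other 2 hosts were not called after NONO knockdown. MIRLET7BHG had 8.69, 8.70 and 7.74 CPM with siNONO-3 and 8.93, 9.87 and 9.34 CPM with siNONO-4, all within the spread of siCtrl (4.60 to 12.4 CPM). Its log2 fold change was 0.17 (95% interval -0.26 to 0.60, edgeR adjusted p = 0.621), and 0.71 (adjusted p = 0.0149) without siCtrl replicate 3. MIRLET7A1HG had 14 to 18.8 CPM over the 6 siNONO libraries, against 16.9 to 18.9 CPM in siCtrl, with a log2 fold change of -0.13 (95% interval -0.38 to 0.11, adjusted p = 0.488).

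Genes that overlap the hosts were read beside them, since the strand setting of the counting is not given and reads in a shared stretch cannot be told apart. ENSG00000275180, a gene of 491 bases with no symbol (chr12:62603909-62604399), lies on the same strand in the intron of MIRLET7IHG, 140 bases after the let-7i hairpin. It had 7.29, 5.95 and 7.97 CPM with siSFPQ-2 and 8.71, 9.57 and 9.76 CPM with siSFPQ-3, against 4.02, 4.09 and 4.52 CPM in siCtrl. It rose with its host, by 0.96 (SE 0.18, edgeR adjusted p = 2.73e-05), while after NONO knockdown its log2 fold change was -0.11 (adjusted p = 0.743). PRR34-AS1, which shares its first exon stretch of 52 bases and its strand with MIRLET7BHG, fell by 1.31 (SE 0.21, adjusted p = 5.24e-06) after SFPQ knockdown. MIRLET7A1HG shares 1299 bases, or 28.7% of its exons, with LINC02603 on the other strand, which had 29 reads in all 24 libraries.

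LIN28B (ENSG00000187772, chr6:104936616-105083332, plus strand) is the regulator that blocks let-7 maturation. It had 116, 151 and 158 CPM with siSFPQ-2 and 129, 115 and 132 CPM with siSFPQ-3, against 385, 463 and 419 CPM in siCtrl. The groups lie far apart, with the highest knockdown library under the lowest control. LIN28B fell 3.17-fold, with a log2 fold change of -1.66 (SE 0.08, edgeR adjusted p = 1.92e-16), -1.58 with siSFPQ-2 alone and -1.75 with siSFPQ-3 alone. LIN28B-AS1 on the other strand, which shares 181 bases or 3.05% of the exons of LIN28B, fell by 1.16 (adjusted p = 9.02e-06).

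With NONO knocked down LIN28B had 350.1, 402 and 343 CPM with siNONO-3 and 375, 419 and 386 CPM with siNONO-4, overlapping siCtrl. The log2 fold change was -0.16 (95% interval -0.32 to 0.01, edgeR adjusted p = 0.189), and -0.15 (adjusted p = 0.0517) with the replicate block. With that block siNONO-3 alone was called for LIN28B, at -0.21 (adjusted p = 0.0210), against an adjusted p of 0.115 without it. SFPQ minus NONO was -1.51 (SE 0.07, adjusted p = 3.97e-17).

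LIN28A, the paralog of LIN28B that recruits TUT4, is not a member, but it is expressed here and did not follow LIN28B. It had 213, 251 and 272 CPM with siSFPQ-2 and 154, 140 and 145 CPM with siSFPQ-3, against 178, 193 and 147 CPM in siCtrl. With siSFPQ-2 it was 0.51 higher (SE 0.13, edgeR adjusted p = 0.00152), and with siSFPQ-3 its log2 fold change was -0.24 (adjusted p = 0.112), so the mean of both, 0.14, was not called (adjusted p = 0.289). The siSFPQ-3 value was called without siCtrl replicate 3 (-0.36, adjusted p = 0.0281), with only the groups compared in the fit (-0.26, adjusted p = 0.0282) and with no filter on low counts (-0.29, adjusted p = 0.00729). The siNONO reagents parted in the same way: LIN28A had 226, 228 and 171 CPM with siNONO-3 and 104, 116 and 78.3 CPM with siNONO-4, log2 fold changes of 0.27 (adjusted p = 0.148, and 0.0491 without siNONO-3 replicate 3) and -0.80 (adjusted p = 0.000291). The differences between reagents were 0.75 (SE 0.13, adjusted p = 0.000327) for siSFPQ-2 minus siSFPQ-3 and 1.07 (SE 0.13, adjusted p = 7.25e-06) for siNONO-3 minus siNONO-4. A value of LIN28A that depends on the reagent is not read here as an effect of either target.

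The uridylyltransferases rose after SFPQ knockdown. TUT4 (ENSG00000134744, chr1:52408282-52553487, minus strand) had 594, 555 and 537 CPM with siSFPQ-2 and 532, 610.4 and 522 CPM with siSFPQ-3, against 296, 285 and 311 CPM in siCtrl. TUT7 (ENSG00000083223, chr9:86287733-86354454, minus strand) had 104, 114 and 118 CPM with siSFPQ-2 and 91.9, 109 and 97.6 CPM with siSFPQ-3, against 41.9, 41.5 and 43.4 CPM in siCtrl. Neither gene's groups overlap. TUT4 rose 1.88-fold (log2 0.91, SE 0.07, edgeR adjusted p = 6.66e-12) and TUT7 2.49-fold (log2 1.32, SE 0.08, adjusted p = 5.96e-14).

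NONO knockdown left both enzymes without a call in the mean of its reagents, at -0.13 for TUT4 (95% interval -0.27 to 0.01, edgeR adjusted p = 0.197) and -0.11 for TUT7 (-0.27 to 0.06, adjusted p = 0.384). TUT4 had 274, 233 and 254 CPM with siNONO-3 and 286, 280.4 and 308 CPM with siNONO-4. With siNONO-3 alone, where 19.9% of all genes were called (11% with siNONO-4), TUT4 fell by 0.23 (adjusted p = 0.0385), a call lost when siCtrl replicate 1 or 3 or siNONO-3 replicate 2 or 3 was left out (-0.23 to -0.19, adjusted p from 0.0891 to 0.165). The reagents differed by -0.20 for TUT4, siNONO-3 minus siNONO-4 (adjusted p = 0.111), which was called with the replicate block that pairs these libraries (-0.20, adjusted p = 0.0277). The differences between the SFPQ and NONO effects were 1.04 (SE 0.06) for TUT4 and 1.43 (SE 0.06) for TUT7 (adjusted p = 1.55e-15 and 3.94e-17).

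Of the target genes, HMGA2 (ENSG00000149948, chr12:65824460-65966291, plus strand) changed most of the 10 members. It encodes a chromatin protein of embryonic cells and tumours. It had 426, 470.0 and 326 CPM with siSFPQ-2 and 344, 407 and 286 CPM with siSFPQ-3, against 2304, 2336 and 2107 CPM in siCtrl. HMGA2 fell 6.0-fold, with a log2 fold change of -2.59 (SE 0.10, edgeR adjusted p = 2.6e-18).

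HMGA2 also fell after NONO knockdown, the only one of the 4 targets that was called there. It had 1145, 1265 and 1063 CPM with siNONO-3 and 1512, 1539.6 and 1422 CPM with siNONO-4, against 2304, 2336 and 2107 CPM in siCtrl. Every siNONO library is below every control, and every siNONO-3 library is below every siNONO-4 library. The fall was 1.71-fold, a log2 fold change of -0.78 (SE 0.10, edgeR adjusted p = 2.26e-06), and siNONO-3 alone gave -0.96 (adjusted p = 9.29e-07) and siNONO-4 alone -0.59 (adjusted p = 0.00106). SFPQ minus NONO was -1.81 (SE 0.08, adjusted p = 1.25e-16).

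HMGA2-AS1, a low noncoding gene on the other strand that shares 384 bases or 2.55% of the exons of HMGA2, went the opposite way after SFPQ knockdown. It had 2.05, 1.24 and 3.57 CPM with siSFPQ-2 and 2.27, 2.7 and 2.65 CPM with siSFPQ-3, against 0.536, 0.613 and 1.17 CPM in siCtrl, where it had 6, 6 and 16 reads. It had 2.57, 3.61 and 6.06 CPM with siNONO-3 and 1.04, 0.858 and 2.87 CPM with siNONO-4, of which only those of siNONO-4 overlap siCtrl. Its log2 fold change was 1.64 (SE 0.43, edgeR adjusted p = 0.00149) for SFPQ and 1.67 (SE 0.43, adjusted p = 0.00712) for NONO, and the NONO call was lost without siCtrl replicate 1 (1.46, adjusted p = 0.053). With siNONO-3 alone HMGA2-AS1 rose by 2.34 (adjusted p = 0.000427), while siNONO-4 alone gave 0.99 (adjusted p = 0.23), and the difference between these reagents was 1.36 (SE 0.41, adjusted p = 0.0344).

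The IGF2BP genes, whose proteins bind and stabilise messenger RNAs such as those of IGF2 and MYC, differed in how far they fell after SFPQ knockdown. IGF2BP2 (ENSG00000073792, chr3:185643130-185825042, minus strand) had 54.2, 60.0 and 54.9 CPM with siSFPQ-2 and 61.1, 57.1 and 64.2 CPM with siSFPQ-3, against 151, 155 and 167 CPM in siCtrl. It fell 2.7-fold, with a log2 fold change of -1.43 (SE 0.08, edgeR adjusted p = 4.54e-15), and the groups lie far apart.

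IGF2BP3 (ENSG00000136231, chr7:23310209-23470491, minus strand) had 187, 195 and 199 CPM with siSFPQ-2 and 185, 197 and 199 CPM with siSFPQ-3, against 251, 283 and 279 CPM in siCtrl. It fell 1.40-fold (log2 -0.49, SE 0.06, edgeR adjusted p = 6.73e-08), and by the same amount with each siRNA. MALSU1 on the other strand shares 1521 bases or 17.82% of the exons of IGF2BP3, and it fell by 0.53 (adjusted p = 2.07e-05), so part of these reads cannot be assigned to 1 gene.

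IGF2BP1 (ENSG00000159217, chr17:48997385-49056145, plus strand) had 489, 532 and 451 CPM with siSFPQ-2 and 634, 543 and 649 CPM with siSFPQ-3, against 640.3, 719 and 651 CPM in siCtrl. The siSFPQ-2 libraries are below the controls and those of siSFPQ-3 overlap them. The mean of both fell 1.23-fold (log2 -0.29, SE 0.07, edgeR adjusted p = 0.000502), with -0.45 for siSFPQ-2 (adjusted p = 2.62e-05) and -0.14 for siSFPQ-3 (adjusted p = 0.134). The siSFPQ-3 value was called with upper quartile scaling (-0.18, adjusted p = 0.043) and without siSFPQ-3 replicate 3 (-0.21, adjusted p = 0.0456). The difference between the siRNAs, -0.31 (SE 0.08, adjusted p = 0.00945), was called in a comparison in which 14.7% of all genes were, and it lost its call in 4 alternatives (-0.30 to -0.25, adjusted p from 0.0535 to 0.0781).

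After NONO knockdown none of the IGF2BP genes was called. Their log2 fold changes were -0.13 for IGF2BP1 (95% interval -0.28 to 0.01), -0.01 for IGF2BP2 (-0.18 to 0.15) and -0.08 for IGF2BP3 (-0.21 to 0.04), with edgeR adjusted p = 0.195, 0.927 and 0.384. IGF2BP2 had 129, 144 and 145 CPM with siNONO-3, all below siCtrl, and 154, 169.9 and 202 CPM with siNONO-4, which overlap siCtrl. Its reagents differed by -0.33 (SE 0.09, adjusted p = 0.0188), in a comparison that called 10% of all genes. The SFPQ effect minus the NONO effect was -1.42 for IGF2BP2, -0.40 for IGF2BP3 and -0.16 for IGF2BP1 (adjusted p = 1.33e-16, 5.58e-08 and 0.0143). The IGF2BP1 difference lost its call with RLE scaling, with DESeq2 and without siNONO-3 replicate 2 (-0.14 to -0.12).

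The first let-7 seed match of each target's 3′ UTR is shown, since these are the stretches with which the seed printed above can pair. Capitals mark CTACCTC, the complement of the seed, on the sense strand of the GRCh38 reference; UTRs are those of the principal transcript in GENCODE 29.
LIN28B, chr6:105078813-105078834, plus strand: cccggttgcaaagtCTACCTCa
HMGA2, chr12:65963299-65963320, plus strand: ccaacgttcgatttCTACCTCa
IGF2BP1, chr17:49051062-49051083, plus strand: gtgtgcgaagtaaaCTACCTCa
IGF2BP2, chr3:185644220-185644241, minus strand: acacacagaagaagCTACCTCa
IGF2BP3, chr7:23311795-23311816, minus strand: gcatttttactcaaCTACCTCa
LIN28B, HMGA2 and IGF2BP1 hold 4 matches each in UTRs of 4549, 3003 and 6206 bases, and IGF2BP2 and IGF2BP3 hold 1 each in 1792 and 2153 bases. TUT4 and TUT7 hold none in 660 and 718 bases. Of UTRs within 20% of the same length, 23.3% hold a match for LIN28B, 14% for HMGA2 and 29.9% for IGF2BP1, and of all 18940 protein-coding genes with a UTR so listed, 8.6% (1628) do.

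The number of matches did not order the falls among the members: with 4 each, HMGA2 fell by 2.59, LIN28B by 1.66 and IGF2BP1 by 0.29, and with 1 each, IGF2BP2 fell by 1.43 and IGF2BP3 by 0.49. Over all genes tested with a UTR, the median log2 fold change after SFPQ knockdown was -0.06 for the 11117 genes with no match, -0.01 for the 1104 with 1 and 0.03 for the 109 with 2. For the 28 with 3 or more, among them HMGA2, LIN28B and IGF2BP1, it was 0.05, with 9 higher (32.1%) and 10 lower (35.7%). Of all 12358 genes tested with a UTR, 34.7% were higher and 38.3% lower. The same medians after NONO knockdown were -0.01, -0.03, 0.02 and -0.14. Of the 28, 1 was higher (3.57%) and 6 lower (21.4%), against 8.02% and 11.4% of the 12358 genes. UTR length moves with the number of matches, with a median of 1007 bases for no match and 5309 bases for 3 or more, and its part was not tested.

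Levels were compared between genes per kb of exon. The length takes in all annotated exons of a gene, such as 16199 bases for TUT4 and 15070 for HMGA2. Transcripts in use may be shorter, and the part of this in the order was not tested. In siCtrl HMGA2 was highest at 149 ± 8.2 CPM per kb (SD, n = 3), and LIN28B (71.1 ± 6.6) and IGF2BP1 (69.6 ± 4.4) followed with overlapping ranges. IGF2BP3 (31.8 ± 2.1) and IGF2BP2 (29.6 ± 1.5) overlapped as well, and TUT4 (18.4 ± 0.82) and TUT7 (6.30 ± 0.15) came below them. The hosts were lowest, with MIRLET7A1HG at 4.02 ± 0.25, MIRLET7IHG at 1.56 ± 0.28 and MIRLET7BHG at 1.34 ± 0.72 CPM per kb, the last 2 with overlapping ranges. LIN28A stood at 43.4 ± 5.9 CPM per kb in siCtrl, between IGF2BP1 and IGF2BP3.

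The order was another one after SFPQ knockdown. Among the members, the level per length with siSFPQ-2 was highest for IGF2BP1 (51.0 CPM per kb). TUT4 (34.7), HMGA2 (27.0), LIN28B (23.8) and IGF2BP3 (22.7) followed, of which HMGA2 overlaps LIN28B and LIN28B overlaps IGF2BP3. With siSFPQ-3 the first 2 places were the same, with IGF2BP1 at 63.2 and TUT4 at 34.2 CPM per kb. LIN28A, which is not a member, had 53.6, 63.1 and 68.5 CPM per kb with siSFPQ-2 and 38.8, 35.1 and 36.5 with siSFPQ-3. These lie above every LIN28B library of the same groups (19.4 to 26.7), while in siCtrl LIN28A was below LIN28B. Among the hosts MIRLET7IHG moved to the first place, with 5.46 and 6.44 CPM per kb with siSFPQ-2 and siSFPQ-3, above MIRLET7A1HG (3.04 and 4.04) and MIRLET7BHG (0.55 and 0.513).

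**Figure D4:**
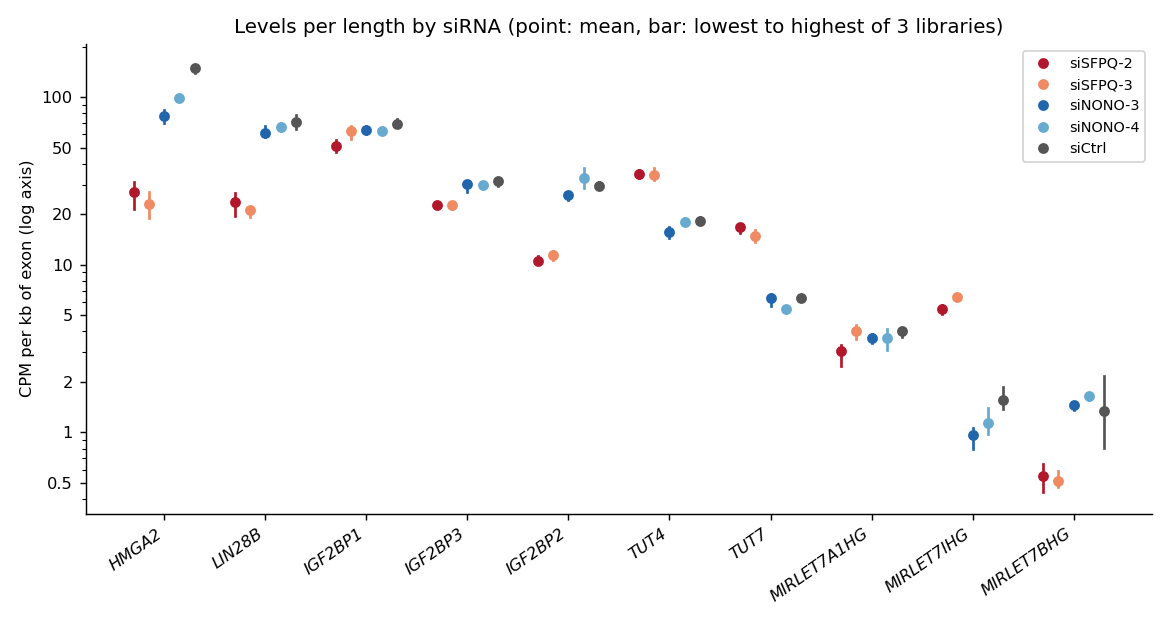
CPM per kb of exon (log axis) of the 10 genes in the 5 siRNA groups; points are means and bars run from the lowest to the highest of 3 libraries. In siCtrl HMGA2 leads at 149 CPM per kb, and with both SFPQ siRNAs IGF2BP1 and TUT4 are the top 2 of these 10.

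In the libraries labelled ASO-NEAT1 no member was called, and neither was any other gene (0% of 15869 tested, with 353 genes at an unadjusted p under 0.05 in edgeR and 0 calls in DESeq2). The members' log2 fold changes ran from -0.11 for LIN28B (95% interval -0.28 to 0.05) to 0.26 for MIRLET7BHG (-0.17 to 0.69), with an adjusted p of 1 for each. MIRLET7IHG had 10.5, 9.66 and 12.5 CPM with ASO-NEAT1-1047 and 11.7, 8.71 and 13.6 CPM with ASO-NEAT1-1473, against 11.8, 7.87 and 11.9 CPM in ASO-Ctrl. Its log2 fold change was 0.09 (95% interval -0.22 to 0.40). HMGA2 had 1767 to 2259.9 CPM over the 6 libraries, against 1923 to 2091 CPM in ASO-Ctrl, with -0.02 (95% interval -0.22 to 0.18). As a fall of NEAT1 RNA was not called, these values describe the labelled libraries. Between the controls, ASO-Ctrl minus siCtrl, no member was called, with 0.454% of all genes called.

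The other 4 hosts listed hold let-7 or miR-98 hairpins in introns. MIR99AHG, the host of let-7c, had 23.5 ± 5.6 CPM with siSFPQ-2 and 18.5 ± 2.5 with siSFPQ-3, against 29.7 ± 6.3 in siCtrl (SD, n = 3 each), and fell by 0.51 (SE 0.14, edgeR adjusted p = 0.00281). HUWE1, a ubiquitin ligase gene that holds let-7f-2 and miR-98, fell by 0.21 (SE 0.08, adjusted p = 0.018), a call lost without siCtrl replicate 2 or 3 (-0.18 and -0.19, adjusted p = 0.0773 and 0.0642). WDR82, whose intron holds let-7g, was higher after SFPQ knockdown by 0.27 (SE 0.07, adjusted p = 0.00062) and lower after NONO knockdown by 0.28 (SE 0.06, adjusted p = 0.00334). The NONO call was lost without siCtrl replicate 1 (-0.23, adjusted p = 0.0538). MIR100HG, with under 1.1 CPM in each siRNA group, was not called (-0.71, adjusted p = 0.13). With the replicate block 2 of these 4 genes were lower after NONO knockdown rather than 1. Of all genes 15.8% were lower with the block and 9.96% without it.

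The 18 genes of let-7 maturation and decay mostly fell after SFPQ knockdown: 2 were higher, 12 lower and 4 not called, against 34.7% higher and 35.8% lower of all genes. Their median log2 fold change was -0.35, against -0.02 over all genes tested. Leaving out 1 library gave 10 to 12 lower and 2 higher. As this list was chosen with earlier results of these data known, its counts describe these genes and are no test of the pathway. AGO2, the Argonaute that carries mature microRNAs and can cut their targets, fell most, to 185 ± 8.8 CPM with siSFPQ-2 and 191 ± 18 with siSFPQ-3, against 385 ± 35 in siCtrl (SD, n = 3 each; log2 -1.03, SE 0.07, edgeR adjusted p = 5.75e-13). DIS3L2, the nuclease that degrades uridylated let-7 hairpins, fell by 0.98 (SE 0.11, adjusted p = 8.5e-09). TARBP2, a partner of Dicer, fell by 0.80, and DGCR8 and DROSHA, which together cut primary microRNAs, fell by 0.71 and 0.69. TRIM71, a let-7 target that promotes stem cell states, fell by 0.40 (adjusted p = 0.00708), a call lost without siCtrl replicate 3 (-0.30, adjusted p = 0.0616).

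The 2 genes of that list that rose were TENT2, another terminal nucleotidyltransferase, by 0.64 (SE 0.07, edgeR adjusted p = 1.42e-08), and DICER1, which cuts the hairpin, by 0.31 (SE 0.07, adjusted p = 0.000285). DICER1 had 339 ± 35 CPM with siSFPQ-2 and 303 ± 18 with siSFPQ-3, against 258 ± 15 in siCtrl (SD, n = 3 each). After NONO knockdown none of the 18 was higher and 3 were lower: ZCCHC7 (-0.33, adjusted p = 0.0126), DICER1 (-0.22, adjusted p = 0.0273) and AGO1 (-0.20, adjusted p = 0.0453). With 17.4% of all genes called in this comparison, 7.47% higher and 9.96% lower, that count is near the background. The ZCCHC7 call was lost without siCtrl replicate 2 (-0.25, adjusted p = 0.122). The DICER1 call was lost without siCtrl replicate 2 or 3, siNONO-3 replicate 1 or siNONO-4 replicate 1 (adjusted p from 0.0569 to 0.148). The AGO1 call was lost without any 1 of the 3 siCtrl libraries, without 5 of the 6 siNONO libraries and with no filter on low counts (adjusted p from 0.0513 to 0.186). With the replicate block 2 were higher and 6 lower, where 28.8% of all genes were called, 13% higher and 15.8% lower. The median of the list after NONO knockdown was -0.06.

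The other let-7 targets went both ways. Of 29 listed, 27 were tested, as MYCN and CCND2 had almost no reads. After SFPQ knockdown 12 were higher, 7 lower and 8 not called, with a median log2 fold change of 0.22 against -0.02 over all genes tested. With 70.4% of all genes called, the number of targets called is at the background. PRTG, ARID3B and MAP4K3 rose by 1.21, 1.13 and 1.08 on the log2 scale.

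IGF1R, the receptor of insulin-like growth factor, fell furthest of this list, to 45.8 ± 0.27 CPM with siSFPQ-2 and 42.6 ± 1.5 with siSFPQ-3, against 178 ± 16.6 in siCtrl (SD, n = 3 each; log2 -2.01, SE 0.10, edgeR adjusted p = 2.99e-16). CDC25A, a phosphatase that drives the cell cycle, fell by 1.69, MYC by 1.41 and IGDCC3 by 0.96. Of the 20 tested genes of the list with a seed match in the UTR, 10 were higher and 5 lower (median 0.30), and of the 6 without one, 2 were higher and 1 lower (median -0.09); MYC has no UTR in the table. After NONO knockdown 2 of the 27 were higher, HRAS (0.63) and ARID3A (0.35), and 5 lower, of which IGDCC3 (-0.72), NRAS (-0.48), PRTG (-0.42) and CDK6 (-0.34) fell most, with a median of -0.07, where 7.47% of all genes were higher and 9.96% lower. The PRTG call was lost without siCtrl replicate 2 (-0.37, adjusted p = 0.0568). With the replicate block 3 of the 27 were higher and 7 lower, where 13% of all genes were higher and 15.8% lower.

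**Figure D5:**
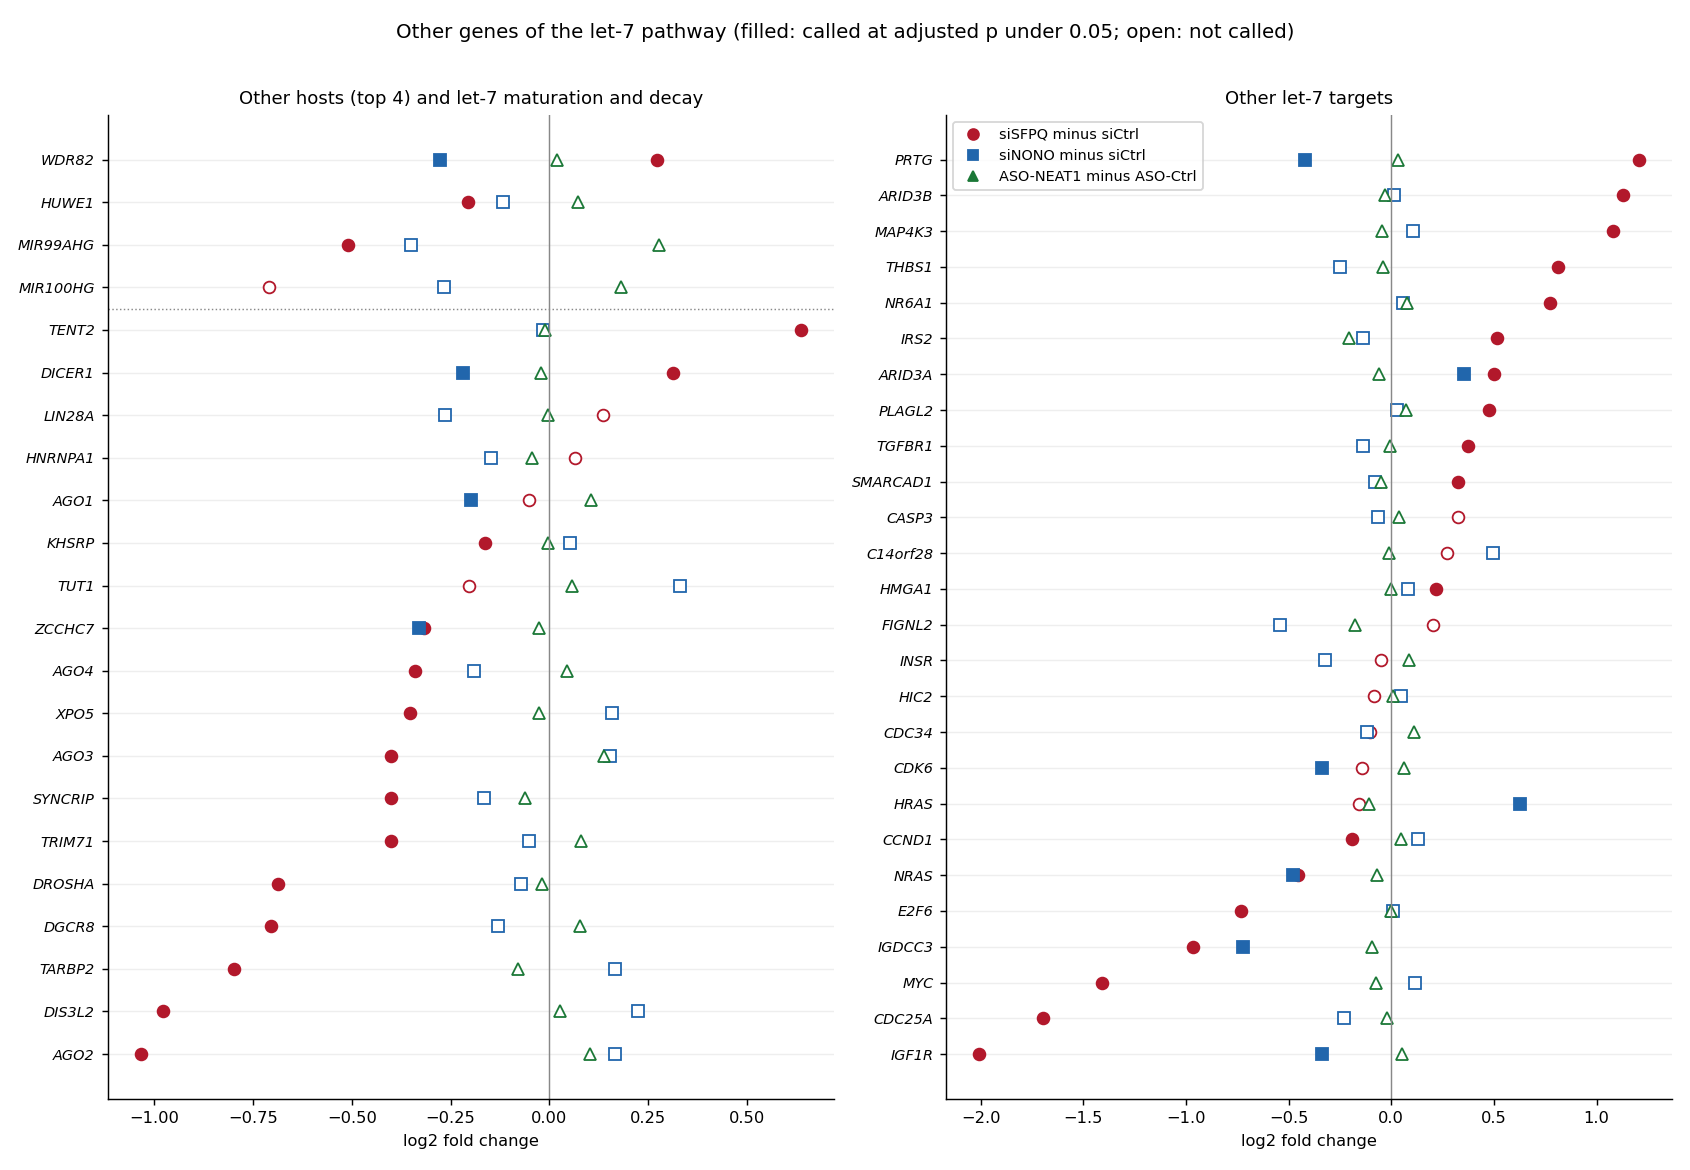
Log2 fold changes of the 4 other hosts, the 18 genes of let-7 maturation and decay and the tested let-7 targets except 1 that is not drawn, for siSFPQ over siCtrl (red circles), siNONO over siCtrl (blue squares) and ASO-NEAT1 over ASO-Ctrl (green triangles); filled symbols are called and open ones are not. After SFPQ knockdown 12 of 18 maturation and decay genes are lower and 2 higher, and of the 27 tested targets, the one not drawn included, 12 are higher and 7 lower.

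For 3 members the genes most alike in pattern were listed, by Pearson's r over the 8 group means of log2(CPM + 1) among 11600 genes with a mean of at least 5 CPM in a group. For MIRLET7IHG they were CXADR, SHROOM3 and BCL9 (r = 0.999, 0.998 and 0.998), for LIN28B they were HNF4G, LPP and NRDC (0.998, 0.997 and 0.996), and for HMGA2 they were GPC6, ZNF229 and CDH11 (0.998, 0.997 and 0.997). These values describe 8 groups of which the SFPQ pair stands apart from the rest, and 2365, 2538 and 2106 genes had an r over 0.9 with MIRLET7IHG, LIN28B and HMGA2.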

How the data were processed

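Whole-number read counts per Ensembl gene were deposited by the authors without scaling. Per the submitters' processing notes, reads were handled with cutadapt 4.2, STAR 2.7.5a and featureCounts of the Subread 2.0.3 package, DESeq2 1.38.1 is named as well, and the build is hg38; annotation release and strand setting: not given in the sources used here. edgeR 4.0.16 (R 4.3.3) was run on these counts as a quasi-likelihood test with TMM factors of 0.949 to 1.045, a filter by group and robust dispersions, in 1 fit of 24 libraries and 15869 genes. The effect of a target averages its 2 reagents and subtracts siCtrl or ASO-Ctrl. P-values were adjusted over all genes by Benjamini-Hochberg and called under 0.05. Comparisons against siCtrl share its error. Members and lists were chosen with earlier results of these data known. Named genes are the members, genes overlapping them, up to 4 risen and 4 fallen genes of each list, and 8 list genes in any case; 1 list gene and 1 marker are not reported here. The script was tested on simulated counts. Symbols matched 60463 genes. Without molecular identifiers, counting error is the only part that depth describes. Replicate numbers were taken to pair libraries where each correlation of their deviations exceeded 0.1. This held for NONO (9 of 9, 0.202 to 0.425) and the ASO arm (9 of 9, 0.221 to 0.534), and only in part for SFPQ (6 of 9, 0.0257 to 0.369). Alternatives were DESeq2 1.42.0, other scalings, no filter, only the groups compared, the replicate block and each library left out.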

Additional observations from a re-analysis of the deposited data

Results flagged for a closer look

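Each of these results differed between the 2 reagents against 1 target in edgeR's test of that difference. IGF2BP1 gave a log2 difference of -0.31 for siSFPQ-2 minus siSFPQ-3 (adjusted p = 0.00945). It was not called with only the groups compared in the fit (-0.30, adjusted p = 0.0667), nor without siSFPQ-2 replicate 3 or siSFPQ-3 replicate 1 or 3 (-0.28 to -0.25, adjusted p from 0.0535 to 0.0781). HMGA2 gave -0.37 for siNONO-3 minus siNONO-4 (adjusted p = 0.0389), and leaving out any of 5 of the 6 libraries ended the call (-0.40 to -0.31, adjusted p from 0.0666 to 0.184). IGF2BP2 gave -0.33 for the same pair (adjusted p = 0.0188), lost without siNONO-3 replicate 1 or siNONO-4 replicate 3 (-0.28 and -0.22, adjusted p = 0.0852 and 0.179). LIN28A gave 0.75 for siSFPQ-2 minus siSFPQ-3 and 1.07 for siNONO-3 minus siNONO-4 (adjusted p = 0.000327 and 7.25e-06), calls that no alternative ended. HMGA2-AS1 gave 1.36 for siNONO-3 minus siNONO-4 (adjusted p = 0.0344), not called with DESeq2 (1.35, adjusted p = 0.055), with only the groups compared (1.35, adjusted p = 0.101) or without siNONO-3 replicate 2 or 3 or siNONO-4 replicate 1 or 2 (0.95 to 1.43, adjusted p from 0.0594 to 0.247). TUT4, siNONO-3 minus siNONO-4, was called only with the replicate block (-0.20, adjusted p = 0.0277).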

How the results depend on the processing

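Over the 4 comparisons of targets, the 10 members gave 630 values under alternatives, of which 625 kept their direction or their lack of a call, 4 calls were lost and 1 was gained, and none reversed. The lost calls were those of MIRLET7IHG after NONO knockdown without siCtrl replicate 3 and of IGF2BP1 in SFPQ minus NONO with RLE scaling (-0.12, adjusted p = 0.064), DESeq2 (-0.13, adjusted p = 0.052) and without siNONO-3 replicate 2 (-0.14, adjusted p = 0.0583); the cause was not tested. Of 3891 values of other named genes, 95 lost a call, 45 gained one and none reversed. Leaving out 1 library, genes called ran from 1661 to 2700 for NONO (2767 in all libraries; the lowest without siCtrl replicate 1), 1979 to 2751 for siNONO-3, 924 to 1587 for siNONO-4, 951 to 1332 for siNONO-3 minus siNONO-4, 1495 to 2137 for siSFPQ-2 minus siSFPQ-3 and 21 to 53 for ASO-Ctrl minus siCtrl. They ran from 0 to 19 for the libraries labelled ASO-NEAT1, 0 to 13 for ASO-NEAT1-1047 and 0 to 17 for ASO-NEAT1-1473, each highest without ASO-Ctrl replicate 3. Members higher after NONO knockdown ran from 0 to 1 and lower from 1 to 2. With no filter on low counts, 3 genes were called for ASO-NEAT1, 2 for ASO-NEAT1-1473, 2 for ASO-NEAT1-1047 minus ASO-NEAT1-1473 and 153 for ASO-Ctrl minus siCtrl. The last comparison had 42 with only its groups in the fit, 135 with DESeq2 and 114 with the replicate block. The replicate block, a pairing that holds for NONO and the ASO arm, called 4568 genes for NONO, 4897 for siNONO-3, 3408 for siNONO-4, 3065 for siNONO-3 minus siNONO-4 and 1 for ASO-NEAT1-1047 minus ASO-NEAT1-1473. For SFPQ the correlations ran from 0.0257 to 0.369 and 6 of 9 exceeded 0.1, so the rule for pairing was met only in part. There the block gave 11806 genes and 3713 for siSFPQ-2 minus siSFPQ-3, and changed no call of a member against siCtrl. Between siSFPQ-2 and siSFPQ-3 it called HMGA2 (0.23, adjusted p = 0.00921) and MIRLET7A1HG (-0.42, adjusted p = 0.0156); leaving out 1 library, HMGA2 (0.38 without siSFPQ-2 replicate 3, 0.37 without siSFPQ-3 replicate 2) and LIN28B (0.30 without siSFPQ-2 replicate 1) were called there too. With the block, siNONO-3 alone also called IGF2BP2 (-0.18, adjusted p = 0.0318) and siNONO-4 alone MIRLET7IHG (-0.45, adjusted p = 0.012). Depth is lowest for MIRLET7BHG among the members, with 1866 reads in all, and it had the widest intervals in the 4 comparisons of targets.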
